A study of Mus musculus with 4 samples.

Results

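The regions described here are the stretches of mouse chromosome 8 that were called enriched for acetylation of histone H3 at lysine 14 (H3K14ac) in C3H10T1/2 cells, an established mesenchymal stem cell line from C3H mouse embryos. They are all entries on chromosome 8 in 2 peak lists, each called on 1 chromatin immunoprecipitation (ChIP-seq) library against input DNA of the same cells. The non-target control list held 757 of its 10395 regions on chromosome 8 and the Nap1l2 knockdown list 1251 of its 18438, that is 2008 of 28833 regions in both. The control cells carried a non-target control and the knockdown cells received lentivirus with Nap1l2 shRNA. Both groups were the same line, and the sample titles call the control cells wild type. The paper describes growth and osteogenic media for this line and does not state which one the ChIP cells were in. Each group had 1 ChIP library and 1 input library, so no difference below has a replicate check, and intervals given here are exact 95% intervals that cover counting error only. The regions were selected on their measured enrichment (a p-value limit of 0.01 in their own library), and the lowest −log10 p on chromosome 8 was 2.02 in the control and 2.01 in the knockdown. What did not reach that limit is not in the lists. The number of the control ChIP library belongs to a different numbering series from that of the other 3 libraries. Whether this marks a batch is not stated, and such a batch cannot be told apart from the group. The lists hold no measurement of Nap1l2 itself, and therefore the depth of the knockdown in these libraries was not checked.

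Acetylated lysines on histone tails weaken the hold of nucleosomes on DNA and are read by bromodomain proteins, and H3K14ac is usually found at active promoters and enhancers. NAP1L2 belongs to the nucleosome assembly proteins, histone chaperones that carry histones to and from chromatin. Mouse chromosome 8 carries a large array of defensin genes, which encode small antimicrobial peptides: α-defensins are known from the Paneth cells of the gut and β-defensins from epithelia, neither of which is a mesenchymal stem cell. It also carries the carboxylesterase genes, several cadherin genes and the cluster of 5S ribosomal RNA genes.

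Since promoters are where this mark is usually sought, the promoter sequences that a region overlapped are shown first. Among 1442 RefSeq promoter windows of 1204 genes on chromosome 8 (250 bases before to 50 bases after a start, GRCm38), 3 were overlapped by a control region and 7 by a knockdown region. Only 3 of these 10 windows belonged to protein-coding genes: that of 4933402J07Rik in the control, at chr8:87563657-87563956 on the plus strand, and those of Defb46 (a β-defensin), at chr8:19239666-19239965 on the plus strand, and Gm5373, at chr8:71858068-71858367 on the minus strand, in the knockdown. The bases inside the region are in capitals and all 3 run 5′ to 3′ along the gene.
Defb46: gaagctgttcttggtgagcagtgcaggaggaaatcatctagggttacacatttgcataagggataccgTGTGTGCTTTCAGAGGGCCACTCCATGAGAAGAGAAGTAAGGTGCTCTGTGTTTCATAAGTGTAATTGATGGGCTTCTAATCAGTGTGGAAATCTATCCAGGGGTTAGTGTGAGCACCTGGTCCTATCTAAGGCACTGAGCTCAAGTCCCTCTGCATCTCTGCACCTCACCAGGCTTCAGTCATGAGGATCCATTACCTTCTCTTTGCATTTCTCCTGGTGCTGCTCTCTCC
Gm5373: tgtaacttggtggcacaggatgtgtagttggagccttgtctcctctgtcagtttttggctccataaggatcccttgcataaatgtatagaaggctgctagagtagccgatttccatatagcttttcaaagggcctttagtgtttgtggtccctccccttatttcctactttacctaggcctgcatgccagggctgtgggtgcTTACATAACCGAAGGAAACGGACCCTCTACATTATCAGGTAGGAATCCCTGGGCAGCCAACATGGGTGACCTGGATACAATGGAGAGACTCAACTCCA
4933402J07Rik: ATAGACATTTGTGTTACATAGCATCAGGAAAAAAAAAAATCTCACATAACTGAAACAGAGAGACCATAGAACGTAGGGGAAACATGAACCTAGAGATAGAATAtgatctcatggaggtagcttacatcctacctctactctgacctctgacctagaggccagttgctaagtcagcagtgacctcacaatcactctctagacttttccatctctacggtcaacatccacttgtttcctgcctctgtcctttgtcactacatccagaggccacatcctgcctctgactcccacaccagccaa

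These were weak regions on windows poor in CpG. The region on the Defb46 window (chr8:19239734-19239970) had 13 ChIP tags at its summit over an input background of 1.27 tags, a fold enrichment of 3.67 and a −log10 p of 4.25, and it took up 232 of the 300 bases. ChIP tags are given unscaled here and below. For the fold they were multiplied by 0.602 in the control and 0.565 in the knockdown to match the input, and 1 was added to both sides. Tags divided by background therefore do not give the fold. The Gm5373 region (chr8:71857971-71858165) had 16 tags over 2.0 and covered 98 bases from the 3′ end, whereas the 4933402J07Rik region (chr8:87563577-87563759) had 13 tags over 1.51 and covered the first 103. The windows held 1, 3 and 2 CpG dinucleotides in the order printed, compared with a median of 8 over the windows of chromosome 8, and a GC content of 48.3%, 48.3% and 44.7% against a median of 54.0%. The TATA box letters TATAAA, searched on both strands, were in none of the 10 overlapped windows and in 12.7% of all windows.

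Chromosome 8 held 7.28% of the control list (6.79 to 7.80%) and 6.785% of the knockdown list (6.43 to 7.16%). Over the 126.2 Mb between the first and the last region or gene this came to 6.0 regions per Mb in the control, rank 5 among 20 chromosomes, and 9.91 in the knockdown, rank 7. The knockdown list had 1.65 times as many regions as the control list on chromosome 8, compared with 1.78 times on the other chromosomes. The ChIP tags at each summit and the local input background were recovered from the p-value and fold columns. Over the genome the control libraries were the deeper ones, with a mean ChIP pileup of 2.50 against 2.26 tags and an input background of 1.51 against 1.27, and the lowest summit that passed at these backgrounds had 9 and 8 tags, respectively. When at least 12 summit tags were required in both lists, the ratio on chromosome 8 was 1.34, but with at least 20 there were 54 knockdown and 27 control regions, and the ratio was 1.70 at a −log10 q of at least 1.3 and 1.78 at a fold of at least 4. Over the whole chromosome the excess of the knockdown list thus did not move one way with the strength of the regions. Outside the 1.5 Mb interval that ends at 21 Mb, described below, the ratio was 1.68 for all regions. There it stayed at 1.68 at a −log10 p of at least 5 and was 1.92 at the fold limit. It rose to 3.75 at the q limit (30 knockdown and 8 control regions) and 4.18 with at least 20 tags (46 and 11). With at least 30 tags, 1 region was left there in each list.

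Most regions were faint and narrow. Control summits had a median of 13 tags (9 to 93) and knockdown summits one of 12 tags (8 to 65), and the −log10 q was 0 for 69.9% and 63.5% of the regions, respectively. A −log10 q of at least 1.3 (a q-value of 0.05) was reached by 20 control regions, 2.64% (1.62 to 4.05%) against 1.08% of the whole control list, and by 34 knockdown regions, 2.72% (1.89 to 3.78%) against 2.01% of the whole knockdown list. The median width was 200 bp (165 to 598 bp) in the control and 207 bp (165 to 701 bp) in the knockdown, close to the 200 and 205 bp of the other chromosomes. One width was common: the shortest, 165 bp, was shared by 24.97% of the control and 22.5% of the knockdown regions. Regions of at least 400 bp made up 2.25% of the control list (17 regions, 1.31 to 3.57%) and 4.08% of the knockdown list (51 regions, 3.05 to 5.33%), compared with 3.06% and 3.89% on the other chromosomes. The widest control region (chr8:103912038-103912635, 12 tags) lay 189 kb from Cdh5, the cadherin of endothelial junctions, and the widest knockdown region (chr8:127501421-127502121, 16 tags) lay in Pard3, a cell polarity gene. In all, the control list covered 168 kb of the chromosome and the knockdown list 294 kb.

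The regions were unevenly spread along the chromosome, and the dense and sparse stretches were broadly shared by both lists. Of 127 bins of 1 Mb, the median held 5 control regions (quartiles 3 and 7.5) and 9 knockdown regions (quartiles 6 and 13), and 8 and 1 bins held 0. The knockdown count was higher in 103 bins, the control count in 17, and 7 were equal. Between the lists, Pearson's r of the bin counts was 0.709 and Spearman's rank correlation 0.646 over the 127 bins, which share gene density and mappability and are not replicates. The stretch from 30 to 60 Mb was the sparsest of the 5 stretches compared, with 2.70 control and 6.70 knockdown regions per Mb and 4.27 protein-coding genes per Mb. From 120 Mb to the end there were 12.4 control and 16.8 knockdown regions per Mb and 11.9 genes per Mb. Gene density did not order all stretches. That from 60 to 90 Mb had 9.93 genes, 5.70 control and 9.60 knockdown regions per Mb. The first stretch, up to 30 Mb, had fewer genes (8.77) but more regions (8.06 control, 11.97 knockdown). Between regions and protein-coding genes per bin, Pearson's r was 0.307 for the control list and only 0.028 for the knockdown list. Spearman's rank correlation was 0.445 and 0.305, respectively. The largest gap without a control region ran from 55.7 to 59.1 Mb, and the largest without a knockdown region from 98.1 to 99.5 Mb.

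**Figure D1:**
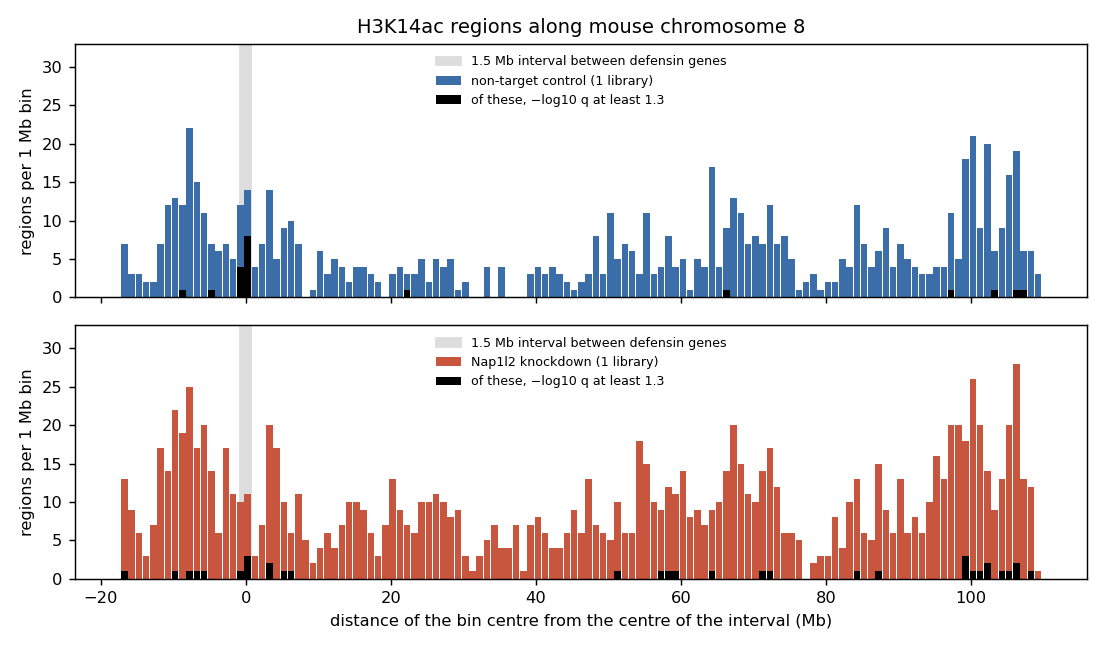
Number of H3K14ac regions in each 1 Mb bin of chromosome 8 in the non-target control (upper panel) and the Nap1l2 knockdown (lower panel), 1 library each, against the distance of the bin from the centre of the 1.5 Mb interval that ends at 21 Mb (grey); the black part of a bar counts regions with a −log10 q of at least 1.3. The coloured bars reach 22 in the control and 28 in the knockdown, both outside the interval, whereas the tallest black bars of the control, 8 and 4 regions, are the bins of the interval.

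The densest control bin, from 12 to 13 Mb, held 22 control and 25 knockdown regions, and the densest knockdown bin, from 126 to 127 Mb, held 28 knockdown and 19 control regions, although in bins of 0.5 or 2 Mb the densest knockdown stretch lay at 120 to 122 Mb. Of the 22 control regions at 12 to 13 Mb, 14 lay in no protein-coding gene, while Mcf2l, a guanine nucleotide exchange factor gene, held 4 control regions and 1 knockdown region. At 126 to 127 Mb, Slc35f3, a solute carrier gene, held 8 of the 19 control and 9 of the 28 knockdown regions. The bin from 120 to 121 Mb had 21 control and 26 knockdown regions, of which 10 and 8 lay in Gse1, a coiled-coil protein gene. The bin from 122 to 123 Mb went the other way, with 20 control and 14 knockdown regions: Zfp469, a zinc finger gene, held 8 and 6 of them, and Cbfa2t3, a transcriptional co-repressor gene, 5 and 1. So did the bin from 84 to 85 Mb, with 17 control and 9 knockdown regions. At 10 to 11 Mb, 13 control regions faced 22 knockdown regions, with 4 and 11 in Myo16, an unconventional myosin gene.

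Among the genes with the most regions, some were long and others were dense for their length. The genes given here were chosen after their counts were seen. Cdh13, which encodes T-cadherin and spans 1185 kb, held 12 control and 25 knockdown regions, or 1.01 and 2.11 per 100 kb, compared with 0.60 and 0.991 per 100 kb over the chromosome. Csmd1, a very long membrane protein gene, was near the chromosome's own density with 11 and 16 regions (0.670 and 0.974 per 100 kb). Dlgap2, a postsynaptic scaffold gene, held 10 and 16, and Tenm3, which encodes a teneurin adhesion protein, held 4 and 15. Zmat4, a zinc finger gene, held 3 control and 12 knockdown regions. Nfix, a nuclear factor I transcription factor gene of only 96.5 kb, stood out for density: its 8 control and 6 knockdown regions made 8.29 and 6.22 per 100 kb.

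The 1.5 Mb interval that ends at 21 Mb was then set beside the rest of the chromosome. It had been proposed as the defensin gene cluster with earlier results of these data known. The exact intervals given for its counts and densities do not allow for that choice. In the RefSeq table the interval lies between groups of defensin genes. The 64 genes whose symbols start with Defa or Defb, pseudogenes included, span 18.97 to 21.95 Mb, and 18 of them lie before the interval, 45 after it and only Defb33 inside it. The 36 genes of the interval are 22 pseudogenes, 9 protein-coding genes and 5 long non-coding RNA genes, and pseudogenes cover 12.4% of it compared with 0.873% of the chromosome. It is called the interval between the defensin genes below. A dense field of pseudogenes is often made of near-identical copies, where a short read can match several places, and how such reads were treated is not given in the sources used here.

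In the control, regions were denser in the interval than on average over the rest of the chromosome; in the knockdown the density was about that of the rest. The control list had 22 regions there, 14.7 per Mb against 5.89 on the rest of chromosome 8, a relative density of 2.49 (1.55 to 3.80). It was not the densest place, since 8 of the 127 bins of 1 Mb held more control regions per Mb, and the relative density was 1.91 against 5 Mb on either side and 1.65 over the whole span of the defensin genes. The 2 Mb after that span were at 1.86 (1.16 to 2.84). The knockdown list had 16, 10.7 per Mb against 9.90, a relative density of 1.08 (0.614 to 1.76). There were thus 0.727 knockdown regions for each control region in the interval (0.357 to 1.45) and 1.68 on the rest (1.53 to 1.84). With the knockdown list cut to the size of the control list its relative density was 1.57. The 0.525 Mb with the defensin genes before the interval held 4 control and 5 knockdown regions. Their relative densities were 1.27 (0.346 to 3.27) and 0.960 (0.311 to 2.25). The 0.949 Mb with the defensin genes after it held 3 and 3, relative densities of 0.525 (0.108 to 1.54) and 0.317 (0.0654 to 0.930).

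**Figure D2:**
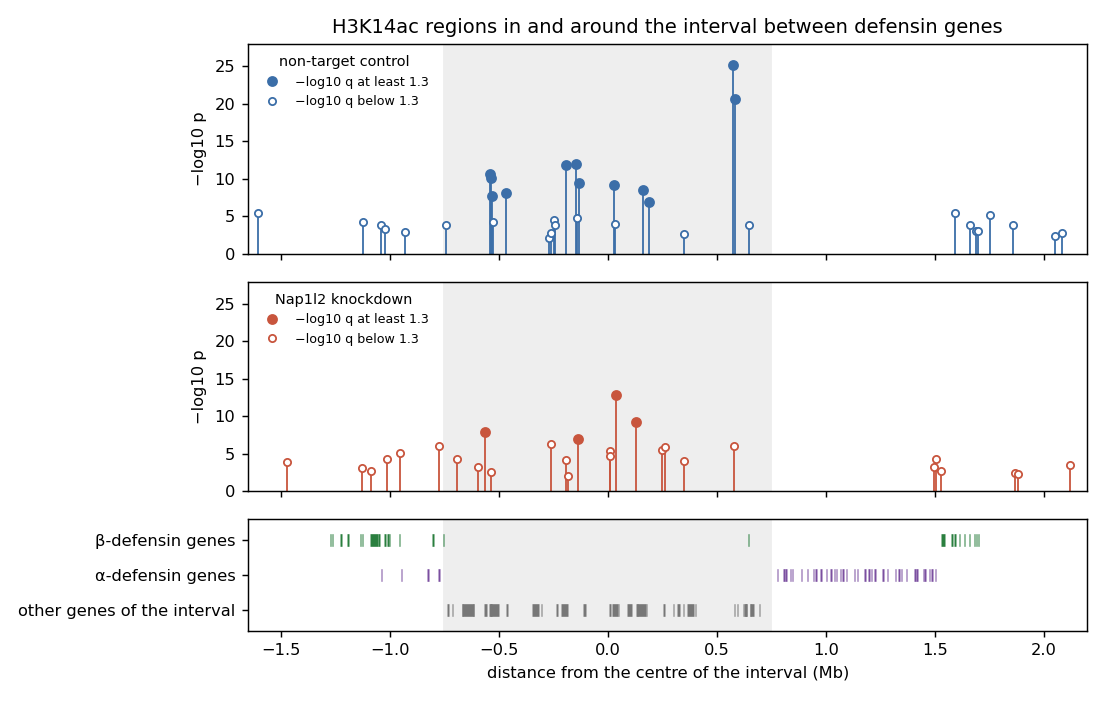
Regions in and around the interval between the defensin genes (grey), drawn as lines whose height is the −log10 p, for the control (top) and the knockdown (middle), with filled points for a −log10 q of at least 1.3; the lowest panel marks β-defensin, α-defensin and the other genes of the interval, all against the distance from its centre in Mb. Control lines reach 25.2 and knockdown lines 12.9 within the grey interval, the 64 defensin genes flank it apart from Defb33, and the flanking regions carry open points.

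The interval stood further apart in the strength of its regions than in their number. It held 12 of the 20 control regions of chromosome 8 with a −log10 q of at least 1.3 (60%, 36.1 to 80.9%) and 4 of the 34 knockdown regions (11.8%, 3.30 to 27.5%). Of the 8 control regions of the chromosome with at least 30 tags it held 7, and of the 5 such knockdown regions 4. Outside it, 8 control regions (1.09%) and 30 knockdown regions (2.43%) reached that q-value. In 1 Mb bins over the whole genome, the bin from 20 to 21 Mb of chromosome 8 had 8 such control regions and the bin from 19 to 20 Mb had 4, whereas none of the other bins held more than 2. In the knockdown the highest bin of the genome held 4 and was on chromosome 15. The bin from 20 to 21 Mb of chromosome 8 was 1 of 8 bins that held 3, as was that from 119 to 120 Mb.

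The strongest control regions of the interval were chr8:20822541-20822732 with 88 tags over a background of 8.0 (−log10 p 25.2) and chr8:20835379-20835568 with 57 tags over 4.0 (−log10 p 20.6). These also had the highest −log10 p of all 757 control regions on the chromosome. Defb33 was the nearest protein-coding gene, 69.9 and 57.1 kb away. The nearest knockdown region, chr8:20827397-20827617, lay 4.67 kb from the first and had 16 tags over 1.27 (−log10 p 6.01), which did not reach the q-value limit. Next came chr8:20103425-20103640 with 29 tags over 1.78 and chr8:20056340-20056543 with 36 tags over 3.0, the latter in Gm20778. The protein-coding gene 4930467E23Rik held 4 control regions, led by chr8:19709607-19709796 with 51 tags over 7.0. It held 1 knockdown region, chr8:19713339-19713543, with 18 tags over 4.0, and this overlapped a control region of 32 tags over 3.0.

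In the knockdown, the strongest region of the interval was chr8:20287288-20287476 with 34 tags over 2.08 (−log10 p 12.9), in 6820431F20Rik. The same gene held a control region 1.58 kb away, chr8:20285436-20285706, with 17 tags over 2.69 and a −log10 p of 3.94. A stronger control region in this gene, chr8:20276792-20276960, lay 10.3 kb away, with 54 tags over 9.0 and a −log10 p of 9.23. The region chr8:20379431-20379595 had the most tags, 65, over a background of 11 (−log10 p 9.24), and the nearest control region was 31.4 kb away. It was followed by chr8:19687314-19687481 (20 tags over 1.27, in Gm6483), chr8:20113347-20113666 (40 over 6.0) and chr8:19988013-19988221 (22 over 2.15). The last of these overlapped a control region of 20 tags over 5.0. Only 2 regions of the interval were shared between the lists, 9.09% of the 22 control regions (1.12 to 29.2%) and 12.5% of the 16 knockdown regions (1.55 to 38.4%). Over the whole of chromosome 8 the shares were 2.91% and 1.76%.

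Both ChIP and input tags were higher at the regions of the interval than outside it. The median of the summit tags was 23.5 inside and 13 outside in the control, and 19 and 12 in the knockdown. A listed region had to pass the p-value limit against its own input. Where the input was high, only summits with many ChIP tags could therefore be listed. The median input background at control regions was 3.13 tags inside it and 1.52 outside, and at knockdown regions 1.98 and 1.27. A background of at least 3 tags was found at 68.2% of the control regions inside (45.1 to 86.1%) and 3.67% outside (2.44 to 5.30%), and in the knockdown at 31.3% (11.02 to 58.7%) and 4.29% (3.23 to 5.58%). The control region with the most ChIP tags, chr8:20116914-20117201, had 93 unscaled tags over an input of 22 and a fold enrichment of 2.48. The median fold enrichment of the interval was 3.53 in the control and 3.60 in the knockdown, against 3.27 and 3.17 on the rest of the chromosome. At the genome-wide input background, only 3 control and 4 knockdown regions lay in the interval, relative densities of 0.68 and 0.415 over its full length. The remaining 19 control and 12 knockdown regions had a raised input. How much of the interval lies at the genome-wide background is not in the lists. These densities are therefore no measure of how dense regions were at such places. The part of copy number or of multiply matching reads in these values was not tested.

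**Figure D3:**
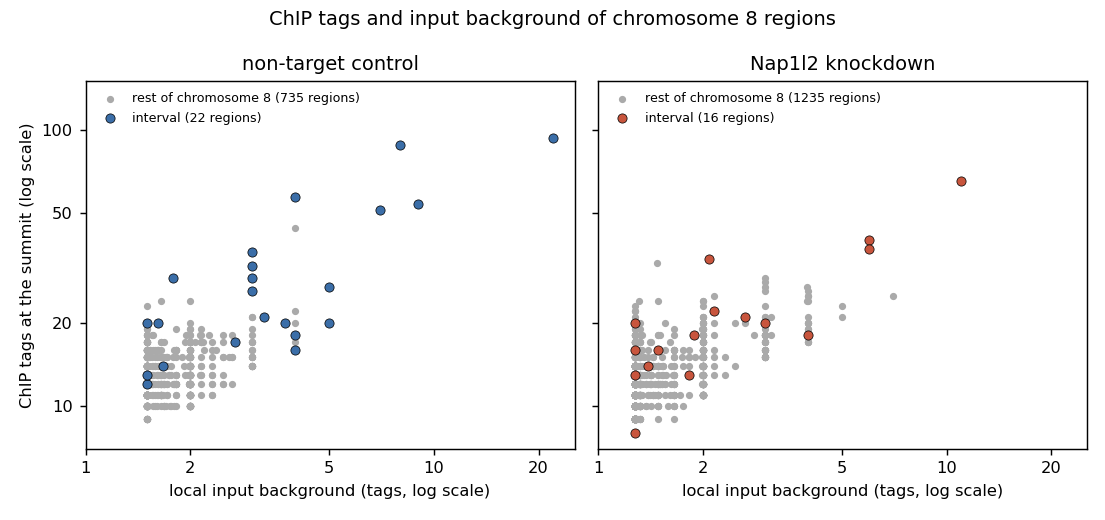
ChIP tags at the summit against the local input background, both in tags on log axes, for each region of chromosome 8 in the control (left) and the knockdown (right); coloured points are regions of the interval between the defensin genes and grey points the rest. Coloured points reach 93 ChIP tags at 22 input tags in the control and 65 at 11 in the knockdown, above the highest grey points, at 44 and 33 ChIP tags. The ChIP tags are not scaled to the input, and only regions that passed the limit against their own input are drawn.

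Few regions of the interval lay in protein-coding genes. In the control 4 of 22 regions lay in a protein-coding gene and 4 in a pseudogene; in the knockdown 1 of 16 lay in a protein-coding gene and 4 in a pseudogene. On the rest of the chromosome a protein-coding gene held 44.6% of the control and 41.5% of the knockdown regions, and a pseudogene 0.952% and 0.648%. Protein-coding genes cover 40.4% of the chromosome and 11.4% of the interval.

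Outside the interval, the strongest control region was chr8:123575447-123575699, with 44 tags over 4.0 (−log10 p 13.5). Its nearest gene of any kind was n-R5s122, a gene for 5S ribosomal RNA, and its nearest protein-coding gene was Gas8, a ciliary dynein regulator, 38.8 kb away. The other control region outside the interval among the 10 with the highest −log10 p was chr8:117529943-117530297 in Plcg2, which encodes a phospholipase C, with 24 tags over 1.65. A knockdown region lay 0.087 kb from it without overlapping. Of the 10 strongest knockdown regions, 7 lay outside the interval. The first was chr8:12722985-12723412, with 33 tags over 1.47, a fold of 7.95 and a −log10 p of 14.5, 33.6 kb from Atp11a, a phospholipid flippase gene. Regions of 24 tags lay in Dlgap2 (chr8:14548189-14548411) and in Pcnx2 (chr8:125797900-125798406). The others lay between genes: 22 tags at chr8:79421154-79421592, 21.7 kb from Smad1, which relays bone morphogenetic protein signals, 23 tags at chr8:92622285-92622716, 51.6 kb from the homeobox gene Irx6, 22 tags at chr8:107226742-107226990, 39.3 kb from Cyb5b, and 25 tags at chr8:120983071-120983510, 101 kb from Foxf1, a forkhead gene of mesenchyme.

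The overlap between the lists was small. On chromosome 8, 22 regions overlapped by at least 1 bp, 2.91% of the control list (1.83 to 4.37%) compared with 2.17% over the whole genome, and 1.76% of the knockdown list (1.11 to 2.65%) compared with 1.23%. Both whole-genome shares lie within the intervals of chromosome 8. With regions within 1 kb counted, the shares were 7.0% and 4.16%, and where each region had to cover at least 50% of the other, 1.32% and 0.799%. The overlaps ranged from 4 to 304 bp with a median of 128 bp, and 12 of the 22 pairs had summits within 100 bp of each other. The −log10 p was higher in the control in 13 pairs and in the knockdown in 9, with a median of 14 and 13 summit tags.

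Cdh13 held 2 of the shared pairs. At chr8:119309422-119309783 in the knockdown there were 18 tags over 1.34, and the overlapping control region had 21 tags over 3.0. At chr8:119269905-119270285 there were 24 tags over 2.0 in the knockdown and 12 tags over 2.31 in the control. Both knockdown regions reached a −log10 q of 1.3, as did the control region of 4930467E23Rik, and the other 19 pairs reached it in neither list. The remaining pairs inside protein-coding genes lay in Nkd1, an inhibitor of Wnt signalling (17 control and 12 knockdown tags), Gse1 (14 and 21), Rasa3, a GTPase activator for Ras (14 and 15), Cbfa2t3 (14 and 12), Tenm3 (20 and 15) and Slc10a7 (9 and 8). Between genes, a pair of 17 and 11 tags lay 4.98 kb from Insr, the insulin receptor gene, and one of 14 and 12 tags lay 49.2 kb from Irs2, which encodes an adaptor of that receptor. Pairs of 14 and 10 tags and of 14 and 20 tags lay 90.8 kb from Irx5 and 191 kb from Foxl1, respectively.

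Regions near genes were counted as those within 2 kb of either end of a protein-coding gene, since the gene table gives no strand. In the control 55 regions lay at a gene end, 7.27% (5.52 to 9.35%), and elsewhere in the genome 5.74% did (5.28 to 6.22%). In the knockdown 39 did, 3.12% (2.23 to 4.24%), and elsewhere 5.30% (4.97 to 5.64%). Chromosome 8 was the only one of the 20 with fewer such regions in the knockdown than in the control list: the ratio was 0.709, and the next lowest was 1.16 on chromosome 15. Its share had rank 5 among the control values and rank 20 among the knockdown values. The control share was also the higher with windows of 1 kb (3.83% and 1.44%) and 5 kb (13.6% and 7.51%) and with all genes of the table (12.5% and 9.83%). The numbers of genes met did not keep that order: they were 106 and 104 at 5 kb, 102 and 126 with all genes of the table, and 4 and 4 at a −log10 p of at least 5. Within 2 kb of a RefSeq start, for the genes that have one in the promoter table, lay 32 control regions (4.23%, 2.91 to 5.92%) and 36 knockdown regions (2.88%, 2.02 to 3.96%).

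**Figure D4:**
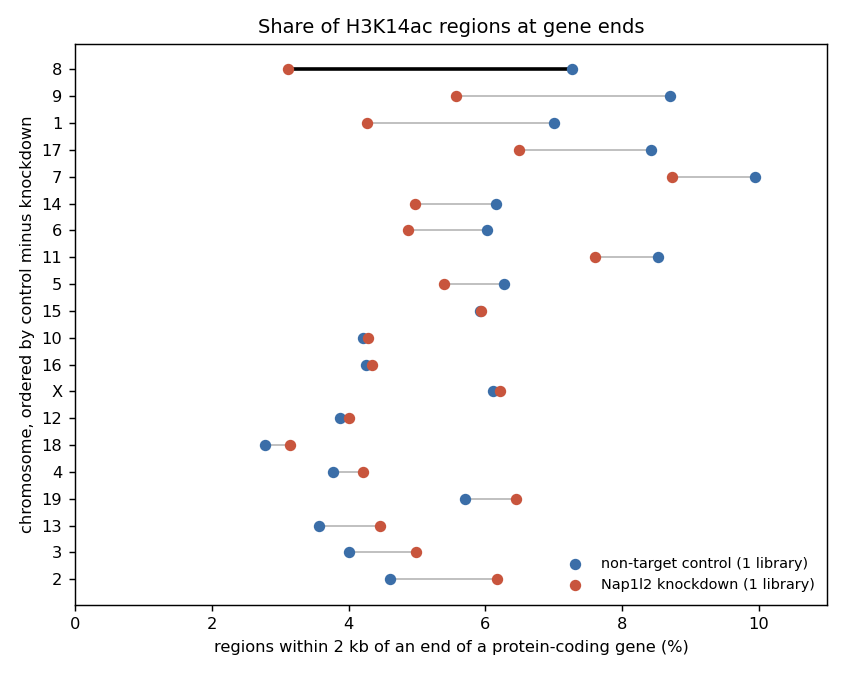
Share of H3K14ac regions within 2 kb of either end of a protein-coding gene, in percent, for each of the 20 chromosomes in the control and the knockdown, 1 library each; chromosomes are ordered by the control share minus the knockdown share. Chromosome 8 (black line) has the widest gap, from 7.27% in the control to 3.12% in the knockdown.

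Counted as genes, 53 of the 1042 protein-coding genes of chromosome 8 had a control region at an end, 5.09% (3.83 to 6.60%) compared with 2.90% over all chromosomes, and 38 had a knockdown region, 3.65% (2.59 to 4.97%) compared with 4.51%. Only 4 genes had one in both lists, of 87 with one in either. In Agt, the angiotensinogen gene, the control region had 14 tags and the knockdown region 16. In Zmat4 there were 16 and 11 tags, at opposite ends of its 415.8 kb, in Rasd2, which encodes a Ras-like GTPase, 15 and 14, and in Snai3, a snail-family repressor gene, 12 in each. None of the chromosome 8 regions at gene ends reached a −log10 q of 1.3 in either list.

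The highest −log10 p at a gene end in the control was 5.37, for Defb2, from a region of 15 tags 1146 bp from the end. It was followed by Zmat4 (5.22), A230072I06Rik (5.08), 1190005I06Rik (5.03), the carboxylesterase gene Ces2e (4.80), Cdh13 (4.74), Rasd2 (4.68) and Cfdp1 (4.60), while Colgalt1, Cacna1a, Ces1a, Sf3b3 and Map10 were level at 4.54. In the knockdown Ripor1 came first with 17 tags and a −log10 p of 6.01. Hsd17b2, which encodes a steroid dehydrogenase, and Defb3 followed with 5.11, Agt with 5.03, Apela, a peptide hormone gene, and Adad2 with 4.33, and Defb46, Cdh16, Ces2h, Nat1, Snx20, Spaca7 and Ido2 with 4.25. Several control regions lay within 60 bp of a gene end, among them those of Irs2 (38 bp), Ccl17 (55 bp) and Gas6 (1 bp), with 11 or 12 tags. So did the knockdown regions of Defb46 (0 bp), Tex29 (0 bp) and Nat1 (59 bp), with 12 or 13 tags.

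Gene families and functional groups of the chromosome were then examined, counting a gene where a region lay in its body or within 2 kb. Over all protein-coding genes of chromosome 8 the shares were 18.9% in the control and 21.7% in the knockdown, compared with 13.3% and 19.0% over the whole genome. Longer genes offer more room for a region, so the median length of each group is given beside that of all protein-coding genes of the chromosome, 17.8 kb. Of the 40 α-defensin genes (median 0.970 kb), 1 had a control region and 1 a knockdown region, both pseudogenes: Defa-ps12 with 13 tags and Defa-ps11 with 11. Of the 24 β-defensin genes (median 3.01 kb), 5 had a region in each list, 20.8%, and these were 10 different genes. In the control they were Defb2 (15 tags), Defb13 (15), Defb33 (13), Defb6 (12) and Defb35 (12), and in the knockdown Defb3 (15), Defb46 (13), Defb34 (12), Defb1 (9) and Defb14 (9). Genes in both lists were rare over the whole chromosome too. Of 87 protein-coding genes with a region at an end in either list, 4 had one in both.

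Of the 20 carboxylesterase genes (median 18.9 kb), whose enzymes hydrolyse esters of drugs and lipids, 5 had a control region (25%) and 1 a knockdown region (5%). In the control these were Ces2e (18 tags), Ces2h (15), Ces1a (14), Ces5a (14 and 13) and Ces2g (10), and 4 of the 5 genes had it at an end. Ces2h alone also had a knockdown region, of 13 tags at another position. Of the 8 cadherin genes (median 56.5 kb), 4 had control regions (Cdh13, Cdh5, Cdh15 and Cdh16) and 5 had knockdown regions (Cdh13, Cdh5, Cdh16, Cdh3 and Cdh11). Cdh5 held 3 control regions of 11 to 13 tags and 2 knockdown regions of 14 and 13. Of the 14 ADAM protease genes (median 25.7 kb), 0 had a control region and 3 a knockdown region, namely Adam18 (18 tags), Adam5 (12) and Adam32 (12). The regions of these 3 genes lay around 24.6 to 24.8 Mb.

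Of 24 regulators of skeletal and mesenchymal cells (median 32.4 kb), 5 had a control region and 8 a knockdown region. Col4a2, which encodes a collagen chain of basement membranes, held 3 regions in each list, none overlapping. Its control region chr8:11418799-11419099 had 23 tags over 1.51 and a −log10 p of 9.06, whereas its knockdown regions had 14, 14 and 9 tags. Sfrp1, a secreted inhibitor of Wnt signalling, held 3 control regions of 10, 11 and 17 tags and 1 knockdown region of 8. Nrg1, a long growth factor gene, held 4 and 6. Col4a1 and Irs2 had 1 control region each, of 12 tags, and 0 knockdown regions. Cbfb, the partner of RUNX factors, Cdh11, the osteoblast cadherin, Fgfr1, Hpgd and Mmp2 had 1 knockdown region each, of 10 to 14 tags, and 0 control regions. Smad1, Comp, Junb, Jund, Foxc2, Foxf1 and the other members had 0 in both.

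Of 13 genes of senescence, telomeres and stress (median 7.98 kb), 0 had a control region and 2 a knockdown region: Nqo1, an antioxidant enzyme gene, with regions of 14 and 13 tags, and Irf2 with 1 of 14 tags. Terf2, Terf2ip, Hmox1 and E2f4 were among the 11 with none in either list. Of 11 chromatin genes (median 39.5 kb), 3 had a control region and 2 others a knockdown region. In the control these were Nsd3, a histone methyltransferase gene (14 and 11 tags), Ctcf, which encodes the insulator protein (14), and Chd9, a chromatin remodeller gene (11). In the knockdown they were Kat6a, a histone acetyltransferase gene (15 and 13), and Ankrd11 (13). There was 1 library per group, and the summits in all the gene families and functional groups examined had 8 to 26 tags. A region in only 1 list therefore does not show that the gene differed between control and knockdown. The same limit holds for the unequal counts of carboxylesterase and ADAM genes.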

How the data were processed

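Positions are those of the authors' narrowPeak lists, on mm10 (GRCm38), given here from 1. The submitters' processing notes name BWA 0.7.13, Picard 1.126 and MACS2 2.1.0 and the build mm10. Of the 4 samples, the 2 ChIP libraries have a list each, called by the authors on single libraries against their own input with a p-value limit of 0.01 and then filtered; the filter and the treatment of multiply matching reads are not given in the sources used here. For each summit, several values were deposited: the fold enrichment, a ratio of scaled ChIP to input at that place, a p-value and a q-value as −log10, and a score, which repeats the −log10 p times 10. Depth in reads is not stated. Whole summit tags and the background were solved from the p-value and fold columns (tolerance 0.02 tags, 100% of entries in both lists, method tested on simulated data).

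Genes were RefSeq genes of GRCm38.p6 and promoter windows the RefSeq ones of that build; on chromosome 8 there were 2379 genes, 1042 of them protein-coding. Promoter orientation was checked on 90 overlapping windows of opposite strands, and 90 matched. The table gives no exons, so the part of a gene that a region met was not told. Shares carry exact Clopper-Pearson 95% intervals; the tags come from PCR and carry no molecular identifiers. With 1 sample per group no test was made. Named regions were the 10 with the highest −log10 p per list, the interval's 5 highest per list and the shared ones; named genes were those nearest to them, the 10 strongest at gene ends per list with ties, and list members with a region. Other genes and regions named, those of dense bins and with many regions included, were chosen after their values were seen. The interval, the members and the lists were chosen with earlier results of these data known. Ties in p-value at equal list size were broken at random. Python 3.11.15, numpy 2.4.6, pandas 2.3.3, scipy 1.17.1 and matplotlib 3.10.9 were used.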

Additional observations from a re-analysis of the deposited data

How the results depend on the processing

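With bins of 0.5 and 2 Mb the densest control stretch still fell within 12 to 14 Mb, whereas the densest knockdown stretch moved to 120 to 122 Mb. A −log10 p of at least 5 left 109 control and 172 knockdown regions, a −log10 q of at least 1.3 left 20 and 34, and a fold of at least 4 left 86 and 153; cutting the knockdown list to the size of the control list left 700, which by construction removes the overall excess and gave a ratio of 0.925 on chromosome 8. The ratio was 1.34 with at least 12 tags and 2.18 at the genome-wide background only, both chosen after seeing the data. The relative density of the interval was 10.3 in the control and 4.59 in the knockdown at the p limit, 125 and 11.1 at the q limit and 9.72 and 2.81 at the fold limit. It was 0.68 and 0.415 at the genome-wide background, from 3 and 4 regions and over the full length of the interval. In the knockdown it was also below 1 against 5 Mb on either side (0.881) and over the span of the defensin genes (0.81). The median width was 192 bp (control, p limit), 210 bp (control, q limit) and 237 bp (knockdown, q limit).

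Genes with a region at an end numbered 4 and 4 at the p limit, 0 and 0 at the q limit, 2 and 3 at the fold limit, 29 and 18 within 1 kb, 106 and 104 within 5 kb, and 19 in the knockdown at equal list size. With all genes of the table they numbered 102 and 126, so the order of the lists turned, although the shares of regions did not, at 12.5% and 9.83%. The other shares of regions were 3.67% (control, p limit), 0% and 0% (q limit), 2.33% and 1.96% (fold limit), 3.83% and 1.44% (1 kb) and 13.6% and 7.51% (5 kb). Shared regions fell to 0% of both lists at the p, q and fold limits, to 1.32% and 0.799% with 50% overlap, and rose to 7.0% and 4.16% within 1 kb. The cause of these shifts was not tested beyond what the limits themselves remove. No paired analysis was possible because there is 1 ChIP sample per group.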
